A study of Homo sapiens with 2 samples.

Results

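The polyamine genes examined here were the 10 genes SAT1, ODC1, AMD1, SMS, SRM, OAZ1, OAZ2, SMOX, PAOX and AZIN1. They were found by matching the Entrez gene IDs of the deposited table to current gene symbols, and all 10 were present among the 23033 genes with a value. RNAseq had been done on a control, labelled WT, and on FZR1 ko cells, each treated with 2 µg/ml cisplatin, a platinum drug that crosslinks DNA. The label of each gives the cell line as T-47D, which is a luminal line of breast cancer. FZR1 picks the proteins that the anaphase-promoting complex tags for degradation as cells leave mitosis. The FZR1 ko line was made with CRISPR/Cas9 and grown from a single cell, so it stands for 1 clone. There was 1 library per condition, so no test was possible, no p-value is given, and an effect of FZR1 ko cannot be told apart from a difference between clones or cultures.

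Polyamines are small, positively charged molecules that bind nucleic acids and are needed for cell growth. Ornithine decarboxylase (ODC1) makes putrescine, and spermidine synthase (SRM) and spermine synthase (SMS) lengthen it with aminopropyl groups that come from S-adenosylmethionine after decarboxylation by AMD1. The acetyltransferase SAT1 and the oxidases PAOX and SMOX run the pathway in the other direction. Antizymes (OAZ1, OAZ2) bind ODC1, carry it to the proteasome and limit polyamine uptake, and the antizyme inhibitor AZIN1, an ODC1 relative without decarboxylase activity, binds the antizymes in turn.

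Antizyme output is set at translation, so the sites concerned are shown before the mRNA levels. The ribosome must slip by a base at the stop codon of a first short reading frame to make the full protein, and polyamines favour the slip. The sites were read from hg38 in coding exons, OAZ1 on the plus strand at chr19:2271422-2271466 and OAZ2 on the minus strand at chr15:64691492-64691536, and the capitals mark the stop codon at which the frame changes.
OAZ1: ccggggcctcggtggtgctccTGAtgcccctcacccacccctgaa
OAZ2: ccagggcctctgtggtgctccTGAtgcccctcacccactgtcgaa
This stop followed 68 codons in OAZ1 and 32 codons in OAZ2, and 39 of the 45 bases shown were identical. FPKM counts the mRNA and holds nothing on how often the frame changes.

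The promoters of SAT1, the polyamine gene that differed most, and of SMS are shown. Both genes lie on the short arm of the X chromosome and went in opposite directions. SMS had the highest log2 ratio of the 10 genes with 1 FPKM added to each level, while the plain ratio was higher for PAOX (1.37 against 1.34). Both windows are the 250 bases before the RefSeq start in GRCh38.p14 on the plus strand, chrX:23782923-23783172 for SAT1 and chrX:21940459-21940708 for SMS, and the capitals mark CCAAT boxes on either strand.
SAT1: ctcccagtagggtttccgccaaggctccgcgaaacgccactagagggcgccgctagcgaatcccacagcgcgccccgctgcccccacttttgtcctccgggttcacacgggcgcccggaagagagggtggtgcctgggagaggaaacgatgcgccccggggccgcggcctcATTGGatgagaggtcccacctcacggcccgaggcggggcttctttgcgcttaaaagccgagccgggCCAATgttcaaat
SMS: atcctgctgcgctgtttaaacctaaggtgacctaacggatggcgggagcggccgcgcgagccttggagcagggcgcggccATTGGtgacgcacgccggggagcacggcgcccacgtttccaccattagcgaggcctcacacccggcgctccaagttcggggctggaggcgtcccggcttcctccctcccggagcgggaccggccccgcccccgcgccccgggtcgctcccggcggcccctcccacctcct
The letters CCAAT or their complement occurred at 2 places in the SAT1 window and at 1 place in the SMS window. Of the polyamine genes, 7 had a promoter sequence, in 10 windows, of which 3 are of AMD1 and 2 of ODC1, and 2 of those of AMD1 are nearly the same. The letters were in 5 of the 10 windows, and in 32.0% of all 35116 promoter windows of this length. The GC box GGGCGG was in 9 of the 10 windows, that of SAT1 being the exception, against 42.6% of all windows. The member windows were 66.4% to 82.4% G or C, above the median of 58.0% over all windows, and matches to G- and C-rich letters move with this. The E-box CACGTG, to which MYC and its relatives bind, was in 2 of the 10 windows, of SRM and ODC1, and in 6.34% of all windows. The AP-1 letters TGANTCA were in 1 window, of OAZ2, against 6.57% of all windows. The TATA box TATAAA, the antioxidant response element TGACNNNGC and the cAMP response element TGACGTCA were in none of the 10, against 10.7%, 10.9% and 1.65% of all windows. These are matches of letters on both strands and not sites of binding.

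FZR1 itself (Entrez gene 51343, chromosome 19) stood at 12.3 FPKM in the control library and at 10.1 FPKM in the FZR1 ko library. The mRNA level thus does not tell which library is the knockout. The study reports a western blot check of the knockout in T-47D cells. The type of FZR1 allele is not given in the sources used here. FPKM is the number of fragments scaled to the length of the transcript and to all mapped fragments of the library, and the number of reads behind a value is not given. Of 9 luminal markers, 6 were under 1 FPKM in both libraries, among them ESR1 and GATA3, with PGR at 0.01 FPKM in the control library and listed at 0 in the other. The other 3 luminal markers were expressed, with KRT8 at 829 and 998 FPKM, KRT18 at 552 and 740.0 FPKM and FOXA1 at 5.07 and 4.65 FPKM in control and FZR1 ko. The basal keratins KRT5 and KRT14 were under 1 FPKM in both, and the mesenchymal gene VIM was at 315 and 295 FPKM. The low ESR1, PGR, GATA3, CDH1, KRT19 and SPDEF and the high VIM went against the label T-47D in both libraries. KRT8, KRT18 and the low basal keratins did not. FOXA1 was far lower than KRT8 and KRT18 and is not counted on either side. CDH2, a mesenchymal cadherin, was at 2.97 FPKM in control but at 15.3 FPKM in FZR1 ko. ZEB1, a repressor of CDH1, was at 2.82 and 4.45 FPKM, a log2 ratio of 0.51. The part of cell state in the results on polyamine genes was not tested. In such bulk RNA, fewer cells that express a gene and less of its RNA per cell cannot be told apart.

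SAT1 was the polyamine gene that separated the libraries. The control library held 118 FPKM of SAT1 and the FZR1 ko library 24.7 FPKM, so the control level was 4.79 times the FZR1 ko level. On the log2(FPKM + 1) scale used for all ratios below, where a positive value means higher in FZR1 ko, the ratio was -2.21. SAT1 was the only one of the 10 genes to differ at least 2-fold in either direction, and it was lower in FZR1 ko. Of the 13554 genes that reached 1 FPKM in either library, 13.5% differed by at least 2-fold. Lower genes made up 6.72% and higher genes 6.78% of the 13554. The share among the polyamine genes, 1 of 10, was near this background at this threshold and pseudocount. SAT1 was also the 1 of the 10 past 4-fold, against 1.11% of all genes, and the 1 past 2-fold with a pseudocount of 5 FPKM, against 3.34%. These counts are the same gene each time, in a list chosen with earlier results of these data known. They are therefore no result about the 10 genes as a set.

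**Figure D1:**
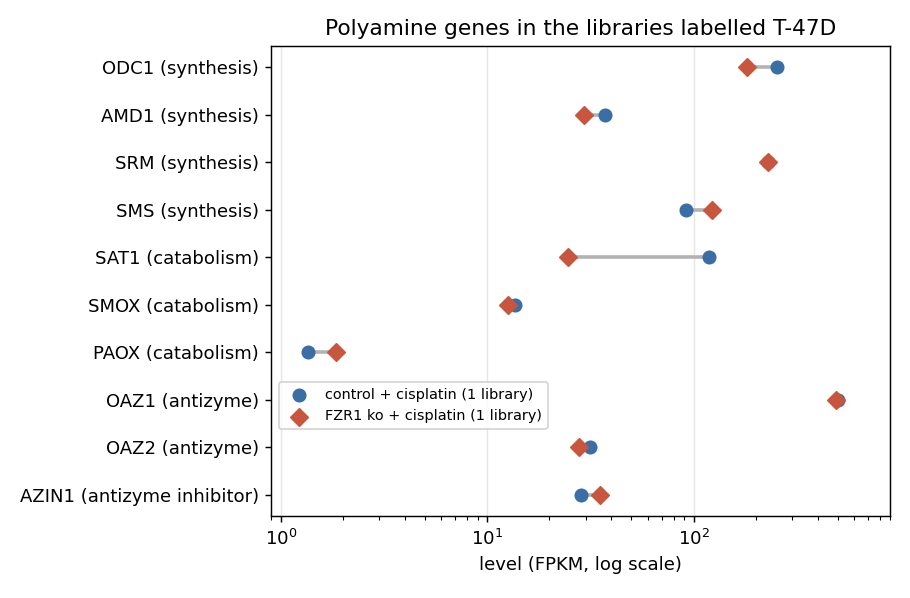
Level of each polyamine gene in FPKM (log scale) in the control library (circles) and the FZR1 ko library (diamonds), 1 library each and so without error bars, with the role of the gene in brackets. The SAT1 pair lies far apart, at 118 and 24.7 FPKM, while the pairs of SRM and OAZ1 nearly coincide.

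Only 53 of the 13554 genes had a lower ratio than SAT1, and 33 of these lower genes were among the 11550 protein-coding genes kept. At least 4-fold lower in FZR1 ko were 0.657% of all genes kept, SAT1 among them. Among the 2069 genes whose mean level was within 2-fold of that of SAT1, 5 differed by as much in either direction, SAT1 included, and all 5 were lower in FZR1 ko. There were 732 other genes with at least the control level of SAT1, and 2 of them had a ratio as low. The plot of ratio against level shows SAT1 well below most genes of its level.

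**Figure D2:**
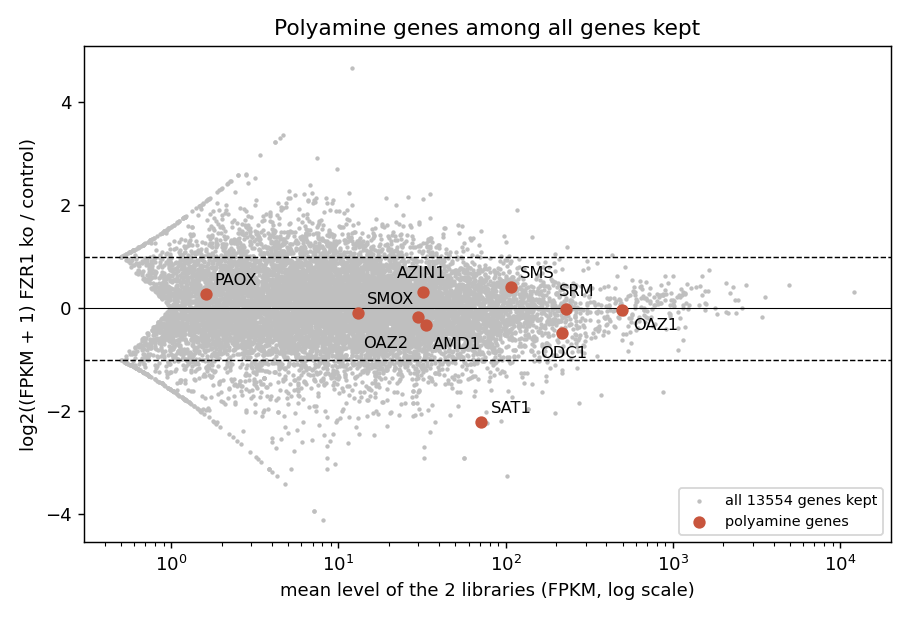
Log2 ratio of FPKM + 1 in FZR1 ko to control (vertical axis) against the mean level of both libraries in FPKM (horizontal axis, log scale) for all 13554 genes kept (grey) and the 10 polyamine genes (red), with dashed lines at 2-fold. SAT1 lies at -2.21, and the other 9 polyamine genes lie between -0.48 and 0.42.

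SAT1 (Entrez gene 6303) lies on the plus strand of the X chromosome at 23783173 to 23786210 of GRCh38.p14, and its main GENCODE 44 transcript has 6 exons and 1049 bases, of which 8.58% are also annotated to another gene on the same strand. The enzyme adds an acetyl group to spermidine and spermine, the step that commits them to export or oxidation. Its pre-mRNA can take up an extra exon that leads to decay of the transcript, and the FPKM of the gene does not tell these forms apart. Among the polyamine genes SAT1 took the 4th place by level in control and the 8th in FZR1 ko. Over all genes kept it went from rank 733 to rank 3610.

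The oxidases did not share this difference. SMOX, which oxidises spermine directly, had 13.6 FPKM in control against 12.6 FPKM in FZR1 ko (log2 ratio -0.10). PAOX, the peroxisomal oxidase that takes the acetylated products of SAT1, had 1.36 and 1.86 FPKM (0.28). PAOX was the lowest of the 10 genes in both libraries, and 75.0% of its main transcript is also annotated to a readthrough gene on the same strand, so its value is uncertain. SAT2, a relative of SAT1 with another main substrate, had 18.0 and 16.5 FPKM (-0.12). Within a library, where the scaling cancels, SAT1 stood at 8.73 times SMOX in control and 1.96 times SMOX in FZR1 ko. Against SAT2 it stood at 6.60 times and 1.50 times. The catabolic genes SAT1, SMOX and PAOX summed to 133 FPKM in control, of which SAT1 made up 88.8%. In FZR1 ko they summed to 39.2 FPKM, of which SAT1 made up 63.0%.

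**Figure D3:**
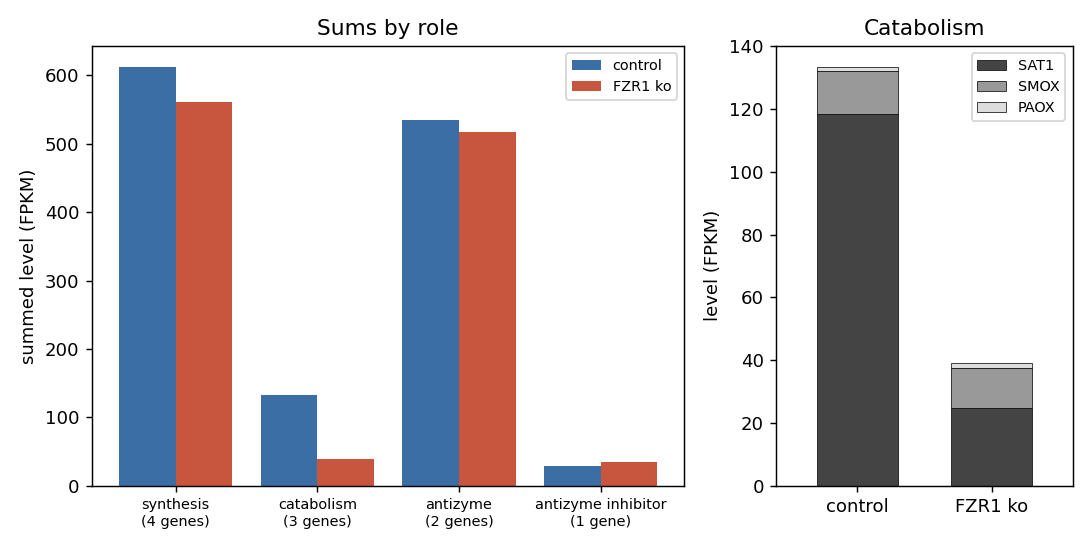
Left, summed level in FPKM of the polyamine genes of each role in control (blue) and FZR1 ko (red); right, the level of each catabolic gene stacked within each library. The catabolic sum was 133 FPKM in control against 39.2 FPKM in FZR1 ko. The synthesis sum and the antizyme sum each differed by less than 10% between the libraries. The antizyme inhibitor had 28.4 FPKM in control against 35.3 FPKM in FZR1 ko.

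Of the synthesis genes, SMS was higher in FZR1 ko and the other 3 were lower, all by less than 2-fold, though SRM came to 0.043 with the libraries rescaled to the same upper quartile. ODC1, whose product starts the pathway, had 254 FPKM in control against 181 FPKM in FZR1 ko (-0.48). This was the second largest decrease among the 10 genes, and 152 of the 596 genes of like level, ODC1 included, differed by as much in either direction. AMD1, which supplies the aminopropyl groups, had 37.1 and 29.4 FPKM (-0.33). SRM, which turns putrescine into spermidine, had 230.2 and 228 FPKM (-0.01), and 552 of the 564 genes of like level differed by at least as much. SMS, which turns spermidine into spermine, had 91.4 and 122 FPKM (0.42), with 559 of 1424 genes of like level as far from 0.

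The SMS gene ends 1.79 Mb before the start of SAT1 on the X chromosome, so these genes of opposite direction are neighbours on the scale of the chromosome. The level of SRM was 2.52 times that of SMS in control and 1.87 times in FZR1 ko. The synthesis genes together reached 612 FPKM in control against 561 FPKM in FZR1 ko. Their sum was 4.59 times that of the catabolic genes in control and 14.3 times in FZR1 ko. This higher ratio restates the lower SAT1 and is not a difference across the pathway. The other catabolic genes, SMOX and PAOX, changed by -0.93 and 0.50 FPKM. From control to FZR1 ko the synthesis sum fell by 50.9 FPKM, while SAT1 alone fell by 93.7 FPKM.

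Both antizyme genes were close to equal in the libraries. OAZ1 had 503 FPKM in control against 489 FPKM in FZR1 ko (-0.04) and was the highest of the 10 genes in both. Of its main transcript, 19.2% is shared with another gene on the same strand and 19.6% overlaps exons of JSRP1 on the other strand. Whether reads were counted by strand is not given in the sources used here, so its value is uncertain too. OAZ2 had 31.6 and 27.9 FPKM (-0.17). OAZ1 was at 16.0 times the level of OAZ2 in control and 17.6 times in FZR1 ko. With less ODC1 mRNA beside nearly the same OAZ1 mRNA, the level of OAZ1 was 1.99 times that of ODC1 in control and 2.70 times in FZR1 ko. The antizyme inhibitor AZIN1 had 28.4 FPKM in control against 35.3 FPKM in FZR1 ko (0.31), with 3.79% of its main transcript shared with another gene on the same strand, and OAZ1 was at 17.7 times and 13.9 times its level. These ratios compare mRNA levels per length and carry no error.

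By level the genes ran in control from OAZ1 through ODC1, SRM, SAT1, SMS, AMD1, OAZ2, AZIN1 and SMOX to PAOX. In FZR1 ko the order was OAZ1, SRM, ODC1, SMS, AZIN1, AMD1, OAZ2, SAT1, SMOX and PAOX. Which neighbours differ beyond replicate error is not known with 1 library each. Across the 10 genes the median ratio was -0.07, and over all genes kept it was -0.0048. The median distance from 0 was 0.29 for the 10 genes and 0.42 for all genes kept. As a group, 7 had a ratio under 0, against 50.3% of all genes kept, and of the 7, SRM and OAZ1 passed above 0 with the libraries rescaled to the same upper quartile. The 10 genes made up 0.260% of all FPKM in control and 0.230% in FZR1 ko.

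The genes around the pathway were taken from a list of 30 genes for polyamine relatives, precursors, hypusine and transport. Of these, 29 had a value and 24 reached 1 FPKM in either library. On the FPKM + 1 scale, 1 of the 24 was at least 2-fold lower and 0 were at least 2-fold higher in FZR1 ko, or 4.17% against 13.5% of all genes, and their median ratio was -0.09. The gene past 2-fold on this scale was OAZ3, an antizyme known from the testis, with 5.34 FPKM in control against 1.16 FPKM in FZR1 ko (-1.55). Its exons overlap those of TDRKH and of 2 lncRNA genes on the other strand, by up to 26.3% of its main transcript, so its reads are uncertain as well.

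**Figure D4:**
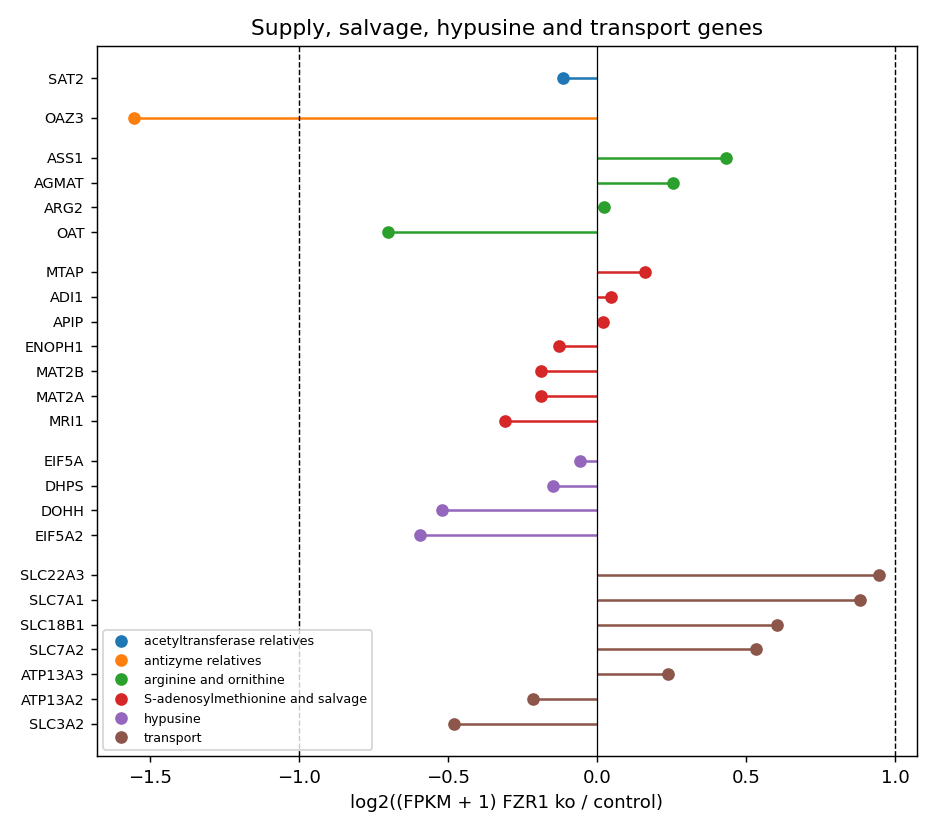
Log2 ratio of FPKM + 1 in FZR1 ko to control for the 24 genes kept of the wider polyamine list, coloured by role, with dashed lines at 2-fold. On this scale OAZ3 alone passes 2-fold, at -1.55, and SLC22A3 comes closest on the other side, at 0.95.

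Of the 7 transport genes kept, 5 had positive ratios, against 49.6% of all genes kept. SLC22A3, an organic cation transporter that can carry polyamines, had 4.94 FPKM in control against 10.5 FPKM in FZR1 ko. Its plain ratio was 2.12, and on the FPKM + 1 scale the log2 ratio was 0.95, short of 2-fold. SLC7A1, which imports arginine and ornithine, had 9.06 and 17.5 FPKM (0.88). SLC18B1, a vesicular polyamine transporter, had 3.31 and 5.55 FPKM (0.60). SLC3A2, the heavy chain of amino acid exchangers, went the other way with 387 and 277 FPKM (-0.48). The lysosomal polyamine exporter ATP13A2 had 11.6 and 9.85 FPKM (-0.22), and its relative ATP13A3 9.93 and 11.9 FPKM (0.24).

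None of the precursor genes passed 2-fold. ARG2, the mitochondrial arginase that makes ornithine, had 3.42 and 3.49 FPKM (0.02), and ARG1 was listed at 0 in both libraries. OAT, which takes ornithine out of the pathway, had 57.8 and 35.1 FPKM (-0.70), and ASS1, which makes the precursor of arginine, had 241 and 325 FPKM (0.43). MAT2A, the main source of S-adenosylmethionine outside the liver, had 172 and 151 FPKM (-0.19). MTAP, which clears the by-product of SRM and SMS, had 7.85 and 8.89 FPKM (0.16). All 7 genes kept for S-adenosylmethionine and its salvage lay between -0.31 and 0.16.

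Spermidine also gives the hypusine residue of the translation factor EIF5A. EIF5A had 708 FPKM in control against 680.2 FPKM in FZR1 ko (-0.06), and its paralogue EIF5A2 had 3.27 and 1.83 FPKM (-0.59). The enzymes that build hypusine, DHPS and DOHH, had 28.7 and 25.8 FPKM (-0.15) and 36.8 and 25.3 FPKM (-0.52). All 4 hypusine genes had a ratio under 0, against 50.3% of all genes kept, with none past 2-fold.

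The 5 protein-coding genes with the levels nearest to those of SAT1 in both libraries, by the distance between pairs of log2(FPKM + 1), were PMAIP1, ATF3, RSRP1, ORC6 and JUN. PMAIP1, which encodes the BH3-only protein NOXA, was the nearest, with 128 FPKM in control against 26.4 FPKM in FZR1 ko at a distance of 0.14. ATF3, a stress-induced transcription factor, had 123 and 29.8 FPKM at 0.26. RSRP1 had 99.4 and 29.8 FPKM, and ORC6, a subunit of the origin recognition complex, had 99.6 and 32.1 FPKM. JUN, a subunit of AP-1, had 153 and 32.9 FPKM at 0.54. This likeness rests on 2 libraries.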

How the data were processed

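RNAseq of 1 control and 1 FZR1 ko library on the BGISEQ-500 platform was used. The authors mapped reads to transcripts of a UCSC hg38 reference (Bowtie2), quantified them by RSEM (submitters' processing notes: Trimmomatic 0.36, HISAT2 2.1.0, Bowtie2 2.2.5; the study's methods give another Bowtie2 version) and deposited FPKM per Entrez gene, to 2 decimals. Annotation version, filters and fragment length are not given in the sources used here. Of 24663 rows, 1630 had no value, and 22925 of the other 23033 IDs (99.5%) matched a RefSeq symbol of GRCh38.p14.

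For each gene, log2(FPKM + 1) in control was subtracted from log2(FPKM + 1) in FZR1 ko, a scale that shrinks differences of low genes, for genes reaching 1 FPKM in either library. A 2-fold threshold served as a description. Genes of like level had a mean FPKM within 2-fold. FPKM keeps no read number. Among 244 short RNA genes the most frequent ratio was 0.977 (46 genes within 0.5%), or about 1.02 reads in FZR1 ko per read in control.

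The named genes are the 10 members, FZR1, members of the wider list, the markers and the 5 genes nearest to SAT1. Members and lists were chosen with earlier results of these data known. The ratio was tested on simulated data. Alternatives were other pseudocounts, filters, scalings, thresholds and protein-coding genes alone. Promoters came from RefSeq (GRCh38.p14), for 7 of the 10 genes, and exons and antizyme sites from GENCODE 44 on hg38. Python 3.11.15, numpy 2.4.6, pandas 2.3.3 and matplotlib 3.10.9 were used.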

Additional observations from a re-analysis of the deposited data

How the results depend on the processing

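No paired analysis was possible because there were no replicates: with 1 library a condition there was no test, and nothing could be left out. The filters, the 4-fold threshold and protein-coding genes alone, 4 alternatives, leave the ratio of a gene as it is. Of 60 values of the polyamine genes under the 6 others, 58 had the same sign and stayed on the same side of 2-fold. The other 2 came with the libraries rescaled to the same upper quartile, where OAZ1 had a log2 ratio of 0.013 and SRM one of 0.043, since this scaling moved the median of all genes by 0.048. SAT1 ranged from -2.26 with no pseudocount, an alternative chosen after seeing the data, to -2.05 with one of 5 FPKM, and remained the only polyamine gene past the threshold under these, and at 4-fold. The highest log2 ratio passed from SMS to PAOX with no pseudocount, at 0.45 for PAOX against 0.42 for SMS. The median of the 10 genes ranged from -0.07 to -0.02. Of all genes, 1830 at first, 2818 differed at least 2-fold with a pseudocount of 0.1 FPKM and 453 with 5 FPKM, and 150 differed at least 4-fold. In the wider list 2 genes passed with 0.1 FPKM, 0 with 5 FPKM and 0 at 4-fold, against 1, OAZ3. Higher pseudocounts and thresholds give fewer genes by construction. Adding 1 FPKM to the numerator and the denominator of each ratio within a library, also where these were sums, kept the direction of all 10 ratios. Among these was SAT1 to SAT2, a gene of the wider list.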

Other observations

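The genes around SAT1 on the X chromosome were chosen after the value of SAT1 was known. Of the 8 protein-coding genes kept within 1 Mb of it, 7 were higher in FZR1 ko, against 49.6% of all genes kept, and 1 was lower. POLA1, named after its value was seen, was past 2-fold higher and KLHL15 past 2-fold lower, or 2 of the 8 against 13.5% of all genes. The median log2 ratio of the 8, PDK3 included, was 0.42, against 0.06 over the 347 protein-coding genes kept on that chromosome. Over all protein-coding genes kept the median was 0.03. The closest on either side were ACOT9, a mitochondrial thioesterase, with 32.8 FPKM in control against 41.0 FPKM in FZR1 ko, and APOO, a mitochondrial inner membrane protein, with 11.0 and 19.9 FPKM. PRDX4, a peroxiredoxin of the endoplasmic reticulum, had 224 and 229.7 FPKM. EIF2S3, a subunit of the initiation factor eIF2, had 91.5 and 132 FPKM, and POLA1, the catalytic subunit of DNA polymerase alpha, had 3.01 and 9.63 FPKM (log2 ratio 1.41). KLHL15, a substrate adaptor of a cullin ubiquitin ligase, was the gene lower in FZR1 ko, as SAT1 was, with 18.2 and 4.95 FPKM (-1.69).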
